A study of Mus musculus with 4 samples.

Results

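The miR-466 family was taken as every name on the array that starts with mmu-miR-466 followed by a letter, on either arm of the hairpin. This gave 10 of the 577 miRNA names on the array. They were measured in A3-1 cells, a line of mouse embryonic stem cells cultured with serum and LIF (leukaemia inhibitory factor). One group was treated for 48 h with an siRNA against GFP (siGFP, the control) and the other with an siRNA against Lin28a (siLin28a), in 2 replicates each. From every replicate, 100 ng of total RNA was labelled with Cy3 and put on an Agilent miRNA array of its own. All groups therefore share an siRNA treatment, and no untreated cells were measured. A miRNA array does not measure Lin28a mRNA, so the extent of the knockdown is not known from these values. The labels do not say whether the replicates were separate cultures, and a p-value here therefore measures the spread between these samples alone, and that spread may be technical. In a bulk extract, fewer cells with a miRNA and less of it per cell cannot be told apart.

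MicroRNAs are cut from hairpins in longer transcripts by Drosha and then Dicer, and one strand of the resulting duplex guides the silencing of mRNAs that match its seed (bases 2 to 8). LIN28A is an RNA-binding protein known for blocking this maturation in let-7 precursors. The miR-466 hairpins belong to a large cluster in an intron of Sfmbt2, a Polycomb-related gene expressed from the paternal allele. Together with the miR-467, miR-669 and miR-297 families they form repeated units of closely related hairpins, and the cluster is known to be active in embryonic stem cells and placenta.

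None of the 10 names has a mature sequence in the RefSeq table used here, so no member sequence is printed. The siRNAs that define the groups are shown first, as the pairs of strands in the labels and without their dTdT overhangs.
siGFP strand 1: ugaauuagauggcgauguu
siGFP strand 2: gacaucgccaucuaauuca
siLin28a strand 1: gggaggaagaggaagagau
siLin28a strand 2: aucucuuccucuuccuccc
For the kind of sequence that carries the miR-466 name, 4 mature miRNAs from RefSeq (GRCm38.p6, 5′ to 3′, all on the plus strand) follow, with the seed in capitals. They lie on chromosomes 13, 10, 3 and 3, outside the Sfmbt2 cluster, and are not on the array.
miR-466i-3p: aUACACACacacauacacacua
miR-466j: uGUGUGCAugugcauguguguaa
miR-466k: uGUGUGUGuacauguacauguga
miR-466q: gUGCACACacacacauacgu
No seed was shared among these 4.

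All 10 probe targets lie on chromosome 2 in build mm9, between 10388586 and 10436549, a stretch of 48.0 kb. In order along the chromosome, miR-466f-5p lies at chr2:10388586-10388602 and miR-466f-3p at chr2:10388629-10388645, named for the 2 arms of one hairpin. miR-466e-3p follows at chr2:10398313-10398329, miR-466c-5p at chr2:10412979-10412998, miR-466b-5p at chr2:10420324-10420343 and miR-466a-5p at chr2:10429556-10429576. miR-466d-5p lies at chr2:10433608-10433625 and miR-466d-3p at chr2:10433649-10433664. The names without an arm close the stretch, with miR-466g at chr2:10436274-10436289 and miR-466h at chr2:10436531-10436549, only 241 bases apart. The files give 1 locus per name, but RefSeq lists several gene copies inside Sfmbt2 for some of them, 8 for miR-466b and 3 each for miR-466c and miR-466f. It places 72 miRNA genes inside Sfmbt2, of which 24 are Mir466 genes. A signal for one of these names may therefore come from more than 1 hairpin. No annotation of exons and introns in mm9 was used.

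All 4 arrays shared 1 slide and 1 scan. The first slide positions, 1 and 2, held replicate 1 of each group, and positions 3 and 4 held replicate 2. A difference between replicates and a difference along the slide therefore cannot be told apart. Within each pair siGFP held the earlier position (1 and 3) and siLin28a the later (2 and 4). Group and order within a pair cannot be told apart either. Between 32.5% and 38.8% of spots were well above background, with the highest share on siLin28a replicate 2. All 7 embryonic stem cell markers of the miR-290 cluster were detected on all 4 arrays, with summed signals of 59382 to 68384 intensity units. Of the 7 fibroblast or feeder markers on the array, 4 were detected on all arrays and 2 (miR-145 and miR-199a-5p) on none, with summed signals of 361 to 427 with siGFP and 458 to 485 with siLin28a. Of 5 markers of primed pluripotent cells, miR-302a, miR-302b, miR-302c and miR-302d were detected on no array. The other, miR-367, was detected on at least 1 array but not on all 4.

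Of the 10 names, 5 were detected on all 4 arrays: miR-466c-5p, miR-466e-3p, miR-466f-3p, miR-466g and miR-466h. Levels are given as total gene signal, which Feature Extraction sums over a name's probes in intensity units and reports with an error estimate and a detection call. miR-466d-3p and miR-466f-5p were detected with siLin28a (both arrays) but not with siGFP. They were among 14 of the 577 names on the array with this pattern, and 0 were detected the other way round. More names were detected on the siLin28a arrays (263 and 289) than on the siGFP arrays (246 and 257). The other 3, miR-466a-5p, miR-466b-5p and miR-466d-5p, were detected on no array, with total signals between -5.64 and 3.31. Signals of different names come from different probes and are not ranked against each other.

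**Figure D1:**
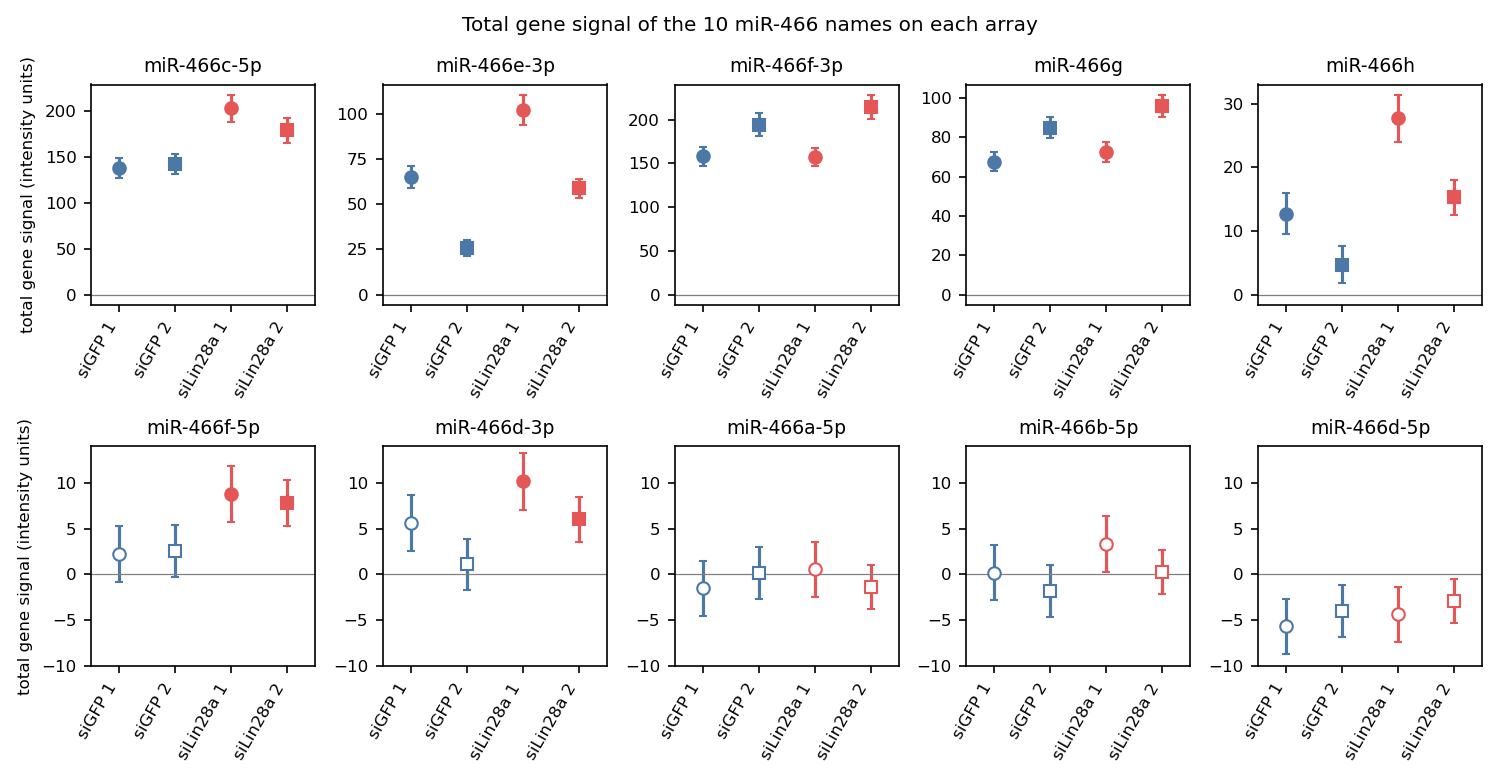
Total gene signal (intensity units, linear axis, not scaled between arrays) of each of the 10 miR-466 names on the 4 arrays, with circles for replicate 1, squares for replicate 2, bars for the error given by Feature Extraction, and open symbols where the name was not detected. miR-466e-3p and miR-466h have their lowest value on siGFP replicate 2 (25.8 and 4.68), while miR-466f-3p and miR-466g are higher in replicate 2 of both groups.

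Against siGFP, no member passed the test in either direction with siLin28a. A name was tested where both arrays of either group had 1 of its probes well above background, which held for 6 of the 10, and 0 of these 6 were called, beside 2 of 231 miRNAs tested (0.866%) by limma at an adjusted p below 0.05. At an unadjusted p below 0.05 the count was also 0 of 6, beside 24.7% of all tested. The median difference of the 6 tested members was 0.12 on the log2 scale, and that of all tested miRNAs was 0.0. The family's median depended on the processing. It was 0.40 with the total gene signal or the deposited table, 0.28 with no scaling and 0.03 with scaling over all probes. With no filter it was 0.0, but over all 10 names, and the names so added lay at the floor on every array. The family's median was -0.09 over the 3 members with probes well above background on all arrays, and 0.06 to 0.20 with 1 array left out. Within the family the differences ran from -0.13 to 0.65. Log2 values are of the signal divided by the array's 75th percentile and set to a floor of -3.40, so that 0 is the level of that percentile. The kept probes of miR-466e-3p, miR-466h and miR-466f-5p met the filter in the siLin28a group and not in the siGFP group. So did the 13-base probe of miR-466g, 1 of its 4. A higher siLin28a value was favoured by the choice itself, and the counts over tested members describe them and support nothing.

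Among the 5p arms, miR-466c-5p gave total signals of 138 and 142 with siGFP and 203 and 179 with siLin28a. It was the 1 member of the 6 whose groups did not overlap, with siLin28a higher, beside 30.7% of all tested miRNAs; 0 of 6 were lower without overlap, also beside 30.7%. Its log2 values were -1.21 and -1.22 in siGFP, against -0.82 and -1.13 in siLin28a, a difference of 0.24 (SE 0.15, limma adjusted p = 0.363, n = 2 per group). It was 0.08 without siLin28a replicate 1, 0.39 without siLin28a replicate 2, 0.06 with scaling over all probes and 0.44 with no scaling. miR-466f-5p, from the 5′ arm of the same hairpin as miR-466f-3p, had total signals of 2.19 and 2.50 with siGFP and 8.77 and 7.80 with siLin28a. These values lay apart, while the error given by Feature Extraction was at least 2.49 on each array. After scaling, its 1 kept probe lay at the floor on all 4 arrays, so its tested difference of 0.0 carries no information. No fold is given for it, since its siLin28a signal lay below the lowest signal well above background on the siGFP arrays. On the same arm, miR-466a-5p gave -1.50 and 0.15 with siGFP against 0.57 and -1.42 with siLin28a, and miR-466b-5p gave 0.17 and -1.79 against 3.31 and 0.21. miR-466d-5p was below 0 on every array, from -5.64 to -2.93. These 3 names showed no level that the arrays could tell from background.

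Of the 3p arms, miR-466e-3p gave total signals that differed between replicates of both groups. They were 65.0 and 25.8 in the siGFP replicates, against 102 and 58.8 in the siLin28a replicates, with means of 45.4 ± 27.7 and 80.6 ± 30.8 (SD, n = 2 each). The groups overlapped, since siGFP replicate 1 exceeded siLin28a replicate 2. On the log2 scale the difference was 0.59 (SE 0.55, limma adjusted p = 0.503, n = 2 per group), with siGFP replicate 2 set to the floor. It was 0.02 without siGFP replicate 2, 0.13 without siLin28a replicate 1, 1.04 without siLin28a replicate 2 and 1.15 without siGFP replicate 1. When dim probes were not filtered out it was called, at the same size (limma adjusted p = 0.00280, against 0.0555 to 0.635 over the other alternatives with all arrays). Its 2 probes were kept in either setting, so its own values were unchanged. The SE was 0.15 there, with limma's variance taken wholly from all 577 names (prior degrees of freedom infinite, against 1.64). That call therefore rests on the smaller SE. miR-466f-3p gave 158 and 194 with siGFP and 157 and 215 with siLin28a. Its groups overlapped, with both replicate 2 arrays above both replicate 1 arrays. The difference was -0.13 (SE 0.18, n = 2 per group, limma adjusted p = 0.653). It was 0.068 with no scaling between arrays, a setting that raised the median of all tested miRNAs to 0.19. miR-466d-3p gave 5.59 and 1.09 with siGFP against 10.2 and 6.01 with siLin28a. It was not tested, because no probe of it met the filter. Each siLin28a value lay above both siGFP values, though 5.59 and 6.01 differ by less than the error, at least 2.44 on each array, that Feature Extraction gives.

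The names without an arm, neighbours on the chromosome, differed in pattern. miR-466g gave 67.6 and 84.9 with siGFP and 72.3 and 96.0 with siLin28a, with replicate 2 the higher array in each group. Its groups overlapped, and they differed by -0.08 in log2 (SE 0.21, limma adjusted p = 0.807, n = 2 per group), which was 0.11 with no scaling. miR-466h gave 12.7 and 4.68 with siGFP and 27.7 and 15.3 with siLin28a. Total signals of miR-466h did not overlap between groups, but the log2 values of its 1 kept probe did, at -2.82 and -3.40 against -2.04 and -2.88. The log2 difference was 0.65 (SE 0.38, limma adjusted p = 0.345, n = 2 per group), with siGFP replicate 2 at the floor. It ranged from 0.23 without siLin28a replicate 1 and 0.36 without siGFP replicate 2 to 0.94 without siGFP replicate 1 and 1.07 without siLin28a replicate 2. It was 0.16 with no filter, 0.22 with normexp background correction and 1.14 with the total gene signal.

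Replicate number goes with slide position, so arrays of the same number were also compared directly. In these pairs siLin28a exceeded siGFP by 0.48 on the log2 scale for miR-466e-3p in the replicate 1 pair and by 0.69 in the replicate 2 pair. Without the floor the second value was 0.93. For miR-466h the pair differences were 0.78 and 0.52, the second being 0.91 without the floor. miR-466c-5p had 0.39 and 0.09. Both pairs thus had siLin28a higher for these 3 of the 6 tested members, beside 41.6% of all tested miRNAs. For miR-466f-3p the differences were -0.16 and -0.11 and for miR-466g -0.08 and -0.09, so that siLin28a was lower in both pairs for 2 of 6, beside 40.3%. Ratios of the unscaled total signals in the pairs were 1.57 and 2.27 for miR-466e-3p, 2.19 and 3.26 for miR-466h, and 1.47 and 1.26 for miR-466c-5p. They were 0.994 and 1.11 for miR-466f-3p and 1.07 and 1.13 for miR-466g. The level of the whole array raises such ratios, since the 75th percentile was 248 and 265 with siLin28a against 226 and 220 with siGFP. The medians over the 6 tested members were 0.19 and 0.04 in the replicate 1 and 2 pairs, with miR-466f-5p at 0.0 from the floor. They were 0.35 and 0.34 with the total gene signal, 0.13 and -0.07 with scaling over all probes, and -0.10 and -0.09 over the 3 members that met the stricter filter, so neither the sign nor the gap between pairs held.

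**Figure D2:**
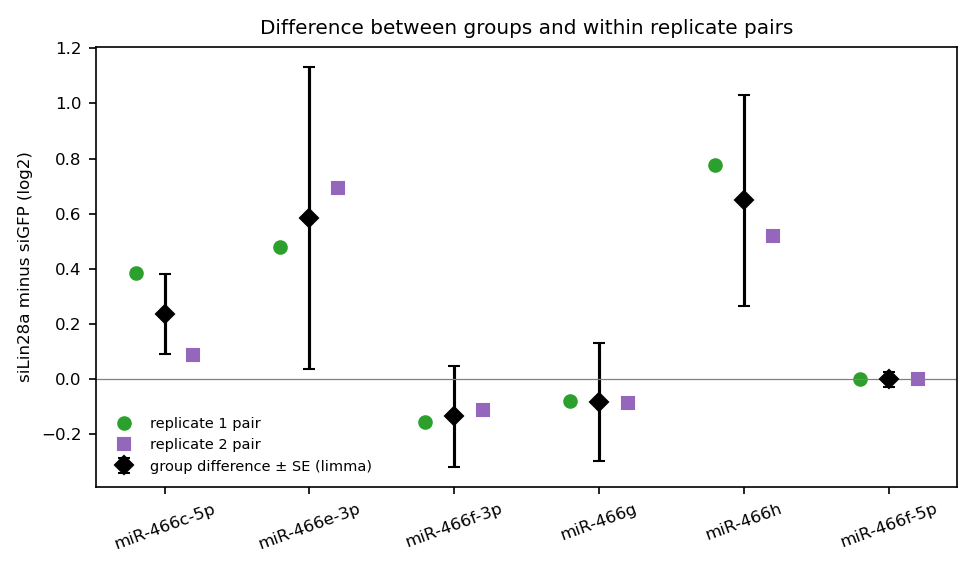
Difference of siLin28a minus siGFP (log2 scaled signal, floored) for the 6 tested miR-466 names, with black diamonds for the group difference and its limma SE, green circles for the replicate 1 pair and purple squares for the replicate 2 pair. miR-466e-3p and miR-466h are above 0 in both pairs, miR-466f-3p and miR-466g just below 0 in both, and miR-466f-5p is at 0 because all its values lie at the floor.

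Between replicates of one group the members parted into opposite patterns. miR-466e-3p had log2 values higher in replicate 1 than in replicate 2 by 1.13 (siGFP) and 0.92 (siLin28a), which exceeds its difference between groups. In unscaled total signal, replicate 1 was 2.51 times replicate 2 with siGFP and 1.74 times with siLin28a. miR-466h went the same way, by 0.58 and 0.84 on the log2 scale, or 2.71 and 1.81 times in total signal. In both names siGFP replicate 2 lay at the floor. Without the floor the siGFP value was 1.37 for miR-466e-3p and 0.97 for miR-466h, and the latter then exceeded its siLin28a value. miR-466f-3p and miR-466g went the other way in both groups, with replicate 1 minus replicate 2 at -0.29 and -0.33 for miR-466f-3p and at -0.36 and -0.35 for miR-466g. miR-466c-5p was at 0.01 and 0.31. The miR-466g value is a mean over 4 probes that differed in size. Its brightest probe, of 16 bases, had scaled signals of 0.363 and 0.390 in the siGFP replicates and 0.360 and 0.366 with siLin28a. Its dimmest, of 13 bases, had 0.095 and 0.145, then 0.092 and 0.137. Counting by direction, 3 of 6 tested members were higher in replicate 1 in both groups, beside 21.6% of all tested miRNAs, and 2 of 6 were lower, beside 36.8%. Among the 3, miR-466c-5p counts only by its siGFP difference of 0.01, a sign that did not hold across measures. Its 20-base probe had scaled signals of 0.530 and 0.553 in siGFP replicates 1 and 2, and its total signals there were 138 and 142. The sixth, miR-466f-5p, lay at the floor on every array and could count in neither direction. A replicate difference over 0.5 in both groups, a limit chosen after the values were seen, was reached by 14 of 231 tested miRNAs (6.06%). Of these 14, 2 were miR-466e-3p and miR-466h, 10 were of the miR-467, miR-669 and miR-297 families, and the other 2 were miR-135b and miR-142-3p. The summed signal of the primed pluripotent markers, of which 4 of 5 were detected on no array, moved the same way at a very low level. It was 27.6 and 10.5 with siGFP and 42.9 and 20.0 with siLin28a. That of the fibroblast or feeder markers was also higher in replicate 1, at 427 and 361 with siGFP and 485 and 458 with siLin28a. The embryonic stem cell markers gave 59717 and 59382, then 65959 and 68384. These sums are unscaled. The 4 tested fibroblast or feeder markers did not agree in log2 replicate 1 minus replicate 2 (siGFP, then siLin28a). The values were 0.39 and 0.34 for miR-21 and 0.13 and 0.02 for miR-29a. They were 0.0 and 0.05 for miR-143, and -0.14 and -0.11 for miR-31. The part of these lists in the result was not tested.

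**Figure D3:**
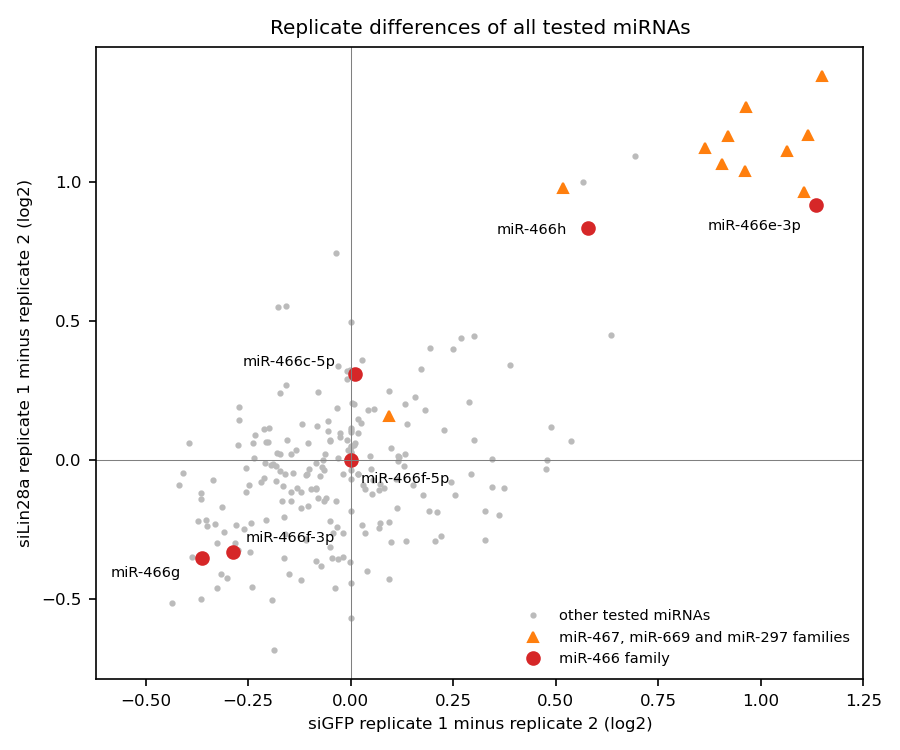
Replicate 1 minus replicate 2 (log2 scaled signal) with siGFP on the x axis and with siLin28a on the y axis, 1 point for each of the 231 tested miRNAs. miR-466e-3p and miR-466h lie at the upper right with 10 of the 11 tested names of the miR-467, miR-669 and miR-297 families. miR-466f-3p and miR-466g lie at the lower left.

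The spots of single probes give the error within an array. Each probe of a member was spotted 5 or 10 times. The miR-466e-3p probe with a target of 17 bases gave mean spot signals of 47.1 ± 3.14 and 18.5 ± 3.07 with siGFP and 70.7 ± 5.60 and 39.2 ± 5.38 with siLin28a (SD over 9 or 10 spots). Its second probe, with a target of 16 bases, gave 46.8 ± 5.49, 16.9 ± 1.65, 73.0 ± 7.48 and 42.0 ± 4.89 in the same order. Replicate 1 exceeded replicate 2 of the same group by more than the spread over spots, for both probes. Between siGFP replicate 1 and siLin28a replicate 2 the gap exceeded the spread over spots for the probe of 17 bases but not for that of 16 bases. The 1 kept probe of miR-466h gave 32.0 ± 6.14 and 15.9 ± 2.72 with siGFP and 60.2 ± 4.62 and 36.0 ± 1.68 with siLin28a (SD over 5 spots). For miR-466f-3p the probe with a target of 17 bases gave 262 ± 6.34 and 298 ± 6.68 with siGFP and 251 ± 4.54 and 329 ± 20.5 with siLin28a (SD over 5 spots). Over the 13 kept probes of 36, the scaled signal was higher with siLin28a in both pairs for 6 and lower in both pairs for 7. These 13 share targets, since probes of a name differ only by bases at one end, so they are not independent. Of the 4 probes of miR-466g, the longest, with a target of 16 bases, varied least between arrays (scaled signals 0.363, 0.390, 0.360 and 0.366).

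**Figure D4:**
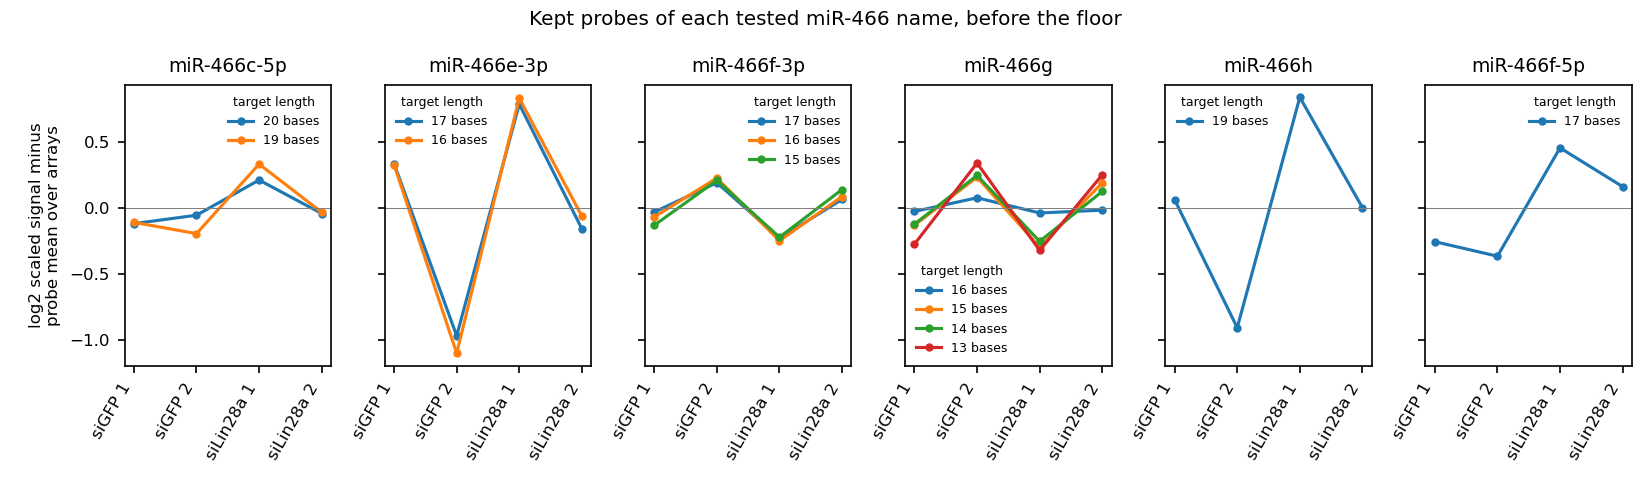
Log2 scaled signal of each kept probe minus that probe's mean over the 4 arrays, before the floor, with 1 panel per tested miR-466 name and 1 line per probe, labelled by target length in bases. Both miR-466e-3p probes are higher in replicate 1 of each group, the 16-base probe of miR-466g varies less than its shorter probes, and the range of miR-466e-3p and miR-466h exceeds that of miR-466c-5p, miR-466f-3p and miR-466g.

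The miR-467, miR-669 and miR-297 families, which share the cluster, were set beside miR-466 (the miR-297a probe target is listed elsewhere, at chr10:42855314-42855332). Of their 15 names on the array, 11 were tested, and 0 passed in either direction (limma adjusted p from 0.294 to 0.530). At an unadjusted p below 0.05 the count was also 0. Their median difference was 0.72, against 0.12 for miR-466, a value that was -0.09 to 0.40 under the alternatives and includes miR-466f-5p at 0.0 from the floor (0.77 with the total gene signal). Their differences ran from 0.22 for miR-669c to 0.92 for miR-467a. siLin28a was higher in both pairs for 11 of 11, beside 41.6% of all tested miRNAs. Replicate 1 was higher in both groups for 11 of 11, beside 21.6%. These names could also pass the filter through the siLin28a group alone, and miR-297b-3p lay at the floor on siGFP replicate 2. A higher siLin28a value could thus be favoured by the choice here too, and these counts describe the names and support nothing. Family medians of replicate 1 minus replicate 2 with siGFP were 1.11 for miR-467, 0.91 for miR-669 and 0.96 for miR-297, and 0.01 for miR-466. With siLin28a they were 1.11, 1.07, 1.12 and 0.15. Both miR-466 medians include miR-466f-5p at 0.0 from the floor. No test of these differences between families was made. The size varied between names, with miR-467b at 1.06 and 1.11 and miR-669c at 0.09 and 0.16 in replicate 1 minus replicate 2, and none of the 11 was lower in replicate 1 in both groups. The values of miR-466e-3p and miR-466h fell within the range of the 11, while those of miR-466f-3p and miR-466g fell below it for both replicate and group differences.

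Names close together on the chromosome did not always share a pattern. miR-466g and miR-466h, 241 bases apart, had replicate differences of opposite sign, while miR-466e-3p and miR-466h, 38.2 kb apart, had the same sign. For miR-466g the size depended on the probe and was least in the longest. miR-669c, whose probe target lies at chr2:10430950-10430967, was close to miR-466c-5p in its values and not to its neighbours of the miR-297 family.

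**Figure D5:**
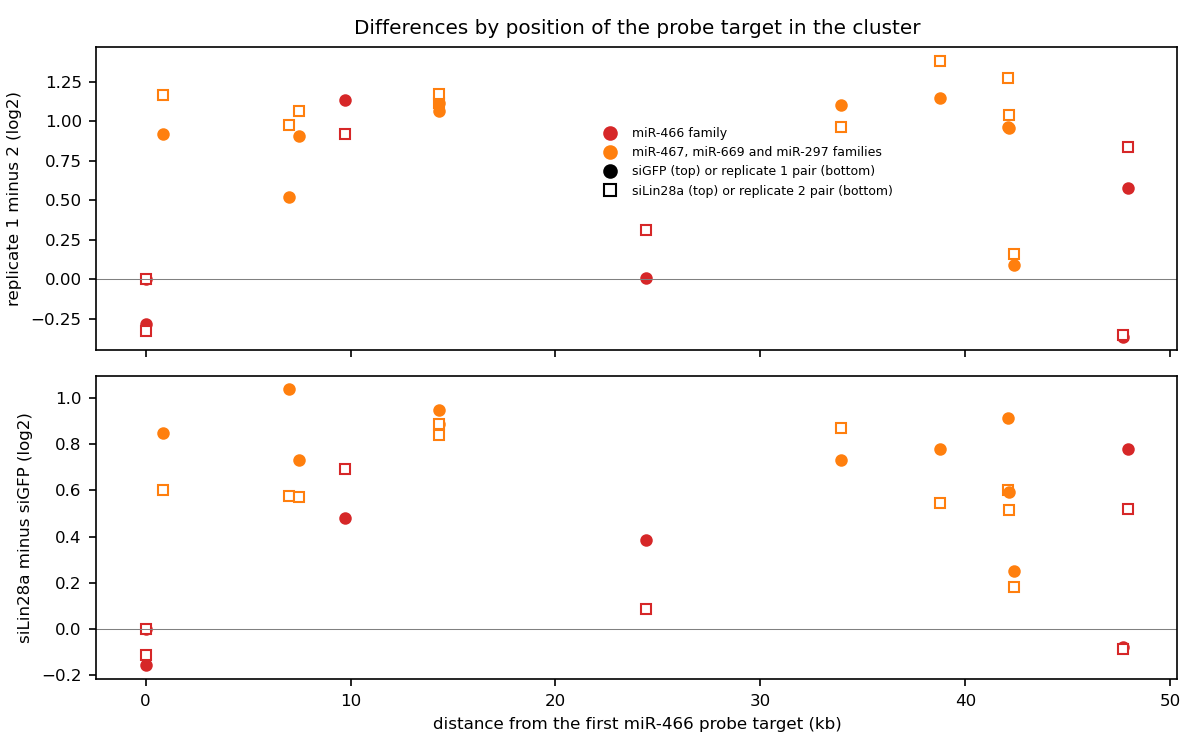
Replicate 1 minus replicate 2 (top) and siLin28a minus siGFP (bottom), both log2, against the distance of each tested name's probe target from the first miR-466 target in kb. Red marks the miR-466 family and orange the other families on chromosome 2, filled circles are siGFP or the replicate 1 pair, and open squares are siLin28a or the replicate 2 pair; miR-466g and miR-466h, at the right edge, lie on opposite sides of 0 in both panels.

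Likeness to the mean profile of the 6 tested members was measured as the root mean square distance over the 4 arrays, after each profile was centred on its own mean. The nearest names outside the family were miR-429 (distance 0.0195), miR-669c (0.0395), miR-29b (0.0440), miR-218 (0.0638) and miR-148b (0.0657), all on the log2 scale. This mean runs between opposite patterns, so the members were also taken singly, a step chosen after the values were seen. Nearest to miR-466e-3p were miR-297b-3p (0.0760) and miR-669a (0.102), and nearest to miR-466h were miR-467c (0.0957) and miR-669a (0.142). miR-466f-3p and miR-466g both had miR-574-5p as the nearest name (0.0297 and 0.0361) and each other as the second (0.0386). For miR-466c-5p, miR-101a (0.0614) and miR-669c (0.0614) came first. With 4 arrays these distances are descriptions and have no test.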

How the data were processed

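The deposited scanner files hold intensity values, made by the authors with Agilent Feature Extraction, version 9.5.1.1 per the file headers and 9.5.3.1 per the submitters' processing notes. A deposited series table, used in an alternative, gives the authors' total gene signals as unscaled intensity. Coordinates are mm9, per the file headers.

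Spots marked as outliers (3.21% to 4.32% per array) were left out, and processed intensity was averaged per probe. A probe was called well above background where this flag was set for at least 50% of its spots. Arrays were divided by their 75th percentile over 425 probes well above background on all arrays, floored at 0.0948 and taken to log2. Probes that met this on the 2 arrays of either group were kept (477 probes, 231 miRNAs) and averaged per miRNA. The comparison of siLin28a with siGFP used limma 3.58.1 (R 4.3.3; lmFit, then eBayes with trend = TRUE); its two-sided p-values were adjusted by Benjamini-Hochberg across the 231, and the steps were tested on simulated data. Every member is named; of other names the text gives up to 3 of the brightest in each family and the 5 nearest to the family's mean profile, and others (miR-467c, the single-member neighbours, miR-135b and miR-142-3p) were picked with their values in view. The members and lists were chosen with earlier results of these data known. The alternatives changed the scaling, background correction, probe summary, filter, floor, outlier rule, variance trend, replicate block and arrays used. The number of arrays limits the precision.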

Additional observations from a re-analysis of the deposited data

How the results depend on the processing

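The differences of miR-466c-5p, miR-466e-3p and miR-466h stayed above 0 in each of the alternatives that gave a value, at 0.06 to 0.44, 0.02 to 1.15 and 0.16 to 1.14. Those of miR-466f-3p and miR-466g turned from below 0 to 0.068 and 0.11 with no scaling, and ranged from -0.30 to 0.031 and from -0.26 to 0.10 with 1 array left out. The median of all tested miRNAs was 0.19 with no scaling and -0.16 with the scaling over all probes. The count of miRNAs called higher, 2 as reported, was 0 with the scaling over all probes and with probes well above background on all arrays, 6 with the total gene signal and with the deposited table, 8 with the floor value added before log2, 11 with normexp, 40 with no filter, and 0 to 10 with 1 array left out. The count called lower, 0 as reported, was 8 with no filter, 3 with normexp, and 0 to 1 with 1 array left out. With no filter, 1 member was called, miR-466e-3p, at an unchanged difference and a smaller SE. With 1 array left out, the lone array is assumed to vary like the other group. Under the stricter filter just named (all arrays), 3 members remain tested, and the median of replicate 1 minus replicate 2 with siLin28a was -0.30, against 0.15.

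With the replicate number as a block, 2 miRNAs were called higher and 0 lower, as without it, and 0 members. miR-466e-3p and miR-466h had SEs of 0.09 each there and the same limma adjusted p = 0.0555. Over tested miRNAs the replicate differences of the groups correlated at 0.71, across miRNAs that are not independent, but with 2 pairs and no label for a shared batch the numbers are not taken to pair the samples. Dim signals near the floor limit miR-466e-3p, miR-466h and miR-466f-5p most.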
